A study of Mus musculus with 28 samples.

Results

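Starburst amacrine cells, retinal interneurons that release acetylcholine, were compared between postnatal day 18 (P18) and postnatal day 3 (P3). The comparison took every array whose title names ChAT, which gave 3 arrays of P18 and 3 of P3, or 6 of the 28 arrays in the series. The other 22 arrays hold Arc amacrine cells. All 6 samples carried a Cre driver at the Chat gene (129S6-Chat_tm1(cre)Lowl/J) and the Rosa26-LSL-RFP reporter, so P3 and P18 cells share both alleles, and no other treatment is named. Each sample held 200 RFP-positive cells, sorted one by one after papain dissociation of 1 retina. The labels call the arrays biological replicates and give all 6 the batch label B. A Cre reporter of this kind stays on in any cell in which the driver was once active, so the gate follows the history of Chat expression and not its level on the day of sorting. The genetic background is labelled as a mixture of C57BL/6J with an FVB/N-Swiss Webster hybrid, whereas the growth protocol describes that cross only for mice obtained from a regional resource centre and places the remaining lines in C57BL/6J. The FVB/N-Swiss Webster parents carry a recessive allele that makes photoreceptors degenerate, and whether the mice sorted here carried it was not given in the sources used here.

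Starburst cells form a pair of mirror-image sheets, one among the amacrine cells and one among the ganglion cells. They release both acetylcholine and GABA. In the first postnatal days their acetylcholine drives spontaneous waves of activity across the retina, and after eye opening their GABA gives direction-selective ganglion cells their preferred direction of motion. Acetylcholine is made from choline by choline acetyltransferase, loaded into vesicles by the vesicular acetylcholine transporter, and broken down in the cleft, after which the choline is taken back up by the high-affinity choline transporter.

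Expression is given as log2 values after RMA, so that a difference of 1 between ages is a 2-fold change. The level below which a signal cannot be told from background was set at 3.91, the 95th percentile of 708 olfactory receptor genes in the 6 arrays. A change that starts or ends below that level is written as "at least", because the true level on the low side is not known. Probe sets differ in brightness, so levels of different genes were not set against each other. Across genes, arrays of the same age correlated with r between 0.95 and 0.957 at P3 and between 0.958 and 0.966 at P18, and arrays of different ages with r between 0.898 and 0.912. In sorted pools of this kind, fewer cells that use a gene and less RNA per cell cannot be told apart.

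Of 13617 genes tested with limma, 648 were higher at P18, which is 4.76% of all genes, and 530 were lower, which is 3.89%. Counts within gene groups below are to be read beside these shares. The change was at least 2-fold for 368 of the higher and 237 of the lower genes, and at least 8-fold for 24 and 10. Among the higher genes 161 went from below background at P3 to above it at P18, and 118 of the lower genes went the other way. The arrays of both ages did not overlap for 3673 genes, or 27.0%, so absence of overlap is common here and carries little weight alone. The median change over all genes was -0.06 on the log2 scale. When the Arc arrays shared the estimate of spread, in a fit over all 28 arrays, 1015 genes were higher and 1236 lower, so the balance of directions depends on the arrays in the fit. That fit pooled single Arc arrays of several neighbouring days as replicates of a group. Change between those days therefore counted as spread, here and wherever that fit is given below.

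The 3 genes that mark starburst cells were followed first, together with the vesicular transporter. Slc5a7, the high-affinity choline transporter (transcript cluster 6856133), had log2 levels of 2.45, 2.14 and 2.80 at P3 and 7.73, 7.70 and 8.11 at P18. Every P3 array lay below background and every P18 array well above it. The log2 change was at least 5.38 ± 0.20 (SE, adjusted p = 1.87e-06). For Chat, choline acetyltransferase (6823797), the log2 levels were 5.42, 5.67 and 4.88 at P3 and 6.80, 7.36 and 7.41 at P18. The gene was thus above background at both ages, with the arrays of P18 all higher, and its log2 level rose by 1.87 ± 0.24 (SE, adjusted p = 0.00148). Slc18a3, the vesicular acetylcholine transporter (6823798), had log2 levels of 6.92, 6.60 and 6.84 at P3 and 7.17, 7.60 and 7.87 at P18. These groups lay close to each other, and the log2 difference of 0.77 ± 0.20 (SE, adjusted p = 0.0442) passed the threshold narrowly. It missed it when any array other than replicate 1 of P18 was left out, with log2 differences between 0.60 and 0.83. Megf10, a cell-surface receptor through which starburst cells space themselves apart (6861173), had log2 levels of 8.32, 8.37 and 8.14 at P3 and 4.92, 4.52 and 4.89 at P18. Its log2 level fell by 3.50 ± 0.16 (SE, adjusted p = 5.18e-06) and stayed above background. Chat, Slc18a3 and Megf10 were thus above background in these cells at both ages, whereas Slc5a7 was above it at P18 alone.

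The promoters of the genes for making, packing and recovering acetylcholine are shown because these genes were all called higher, although from different starting levels. The 250 bases before the start listed by RefSeq for build GRCm38.p6 are given, 5′ to 3′ on the minus strand, on which all 3 genes lie. Capitals mark any match to the TATA box (TATAAA), the GC box (GGGCGG) or an E-box (CAGCTG), searched on both strands together with the homeodomain core (TAATTA), which did not occur. These motifs do not overlap in the sequences shown.
Slc5a7, chr17:54299035-54299284: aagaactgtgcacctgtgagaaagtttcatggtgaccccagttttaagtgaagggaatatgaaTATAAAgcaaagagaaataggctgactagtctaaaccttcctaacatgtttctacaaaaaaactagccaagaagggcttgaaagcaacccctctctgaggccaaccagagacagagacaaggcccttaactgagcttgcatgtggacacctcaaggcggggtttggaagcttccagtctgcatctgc
Chat, chr14:32465910-32466159: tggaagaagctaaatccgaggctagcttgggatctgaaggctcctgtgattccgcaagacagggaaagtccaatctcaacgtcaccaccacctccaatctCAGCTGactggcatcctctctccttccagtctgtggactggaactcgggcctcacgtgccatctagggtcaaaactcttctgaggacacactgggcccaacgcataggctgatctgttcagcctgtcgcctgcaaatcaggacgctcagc
Slc18a3, chr14:32464851-32465100: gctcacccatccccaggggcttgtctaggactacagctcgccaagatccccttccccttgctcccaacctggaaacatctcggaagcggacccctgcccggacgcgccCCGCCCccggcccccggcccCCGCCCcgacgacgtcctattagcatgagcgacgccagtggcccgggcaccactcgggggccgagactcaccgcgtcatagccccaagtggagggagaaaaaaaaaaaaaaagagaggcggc

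The start of Slc18a3 lies 1059 bases beyond that of Chat in the direction of transcription, and the vesicular transporter gene is known to sit inside the first intron of Chat. Despite this shared locus the windows differ in composition, with 54.8% G and C before Chat and 66.0% before Slc18a3, as against 45.6% before Slc5a7. The Slc5a7 window held a TATA box 187 bases before the start, the Chat window an E-box 150 bases before it, and the Slc18a3 window a pair of GC boxes at 142 and 122 bases, both read on the opposite strand as CCGCCC. Among 32851 promoters of the same length, 12.4% held TATAAA, 32.7% GGGCGG, 13% CAGCTG and 4.84% TAATTA. Each match describes letters in the window and not a site of binding.

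**Figure D1:**
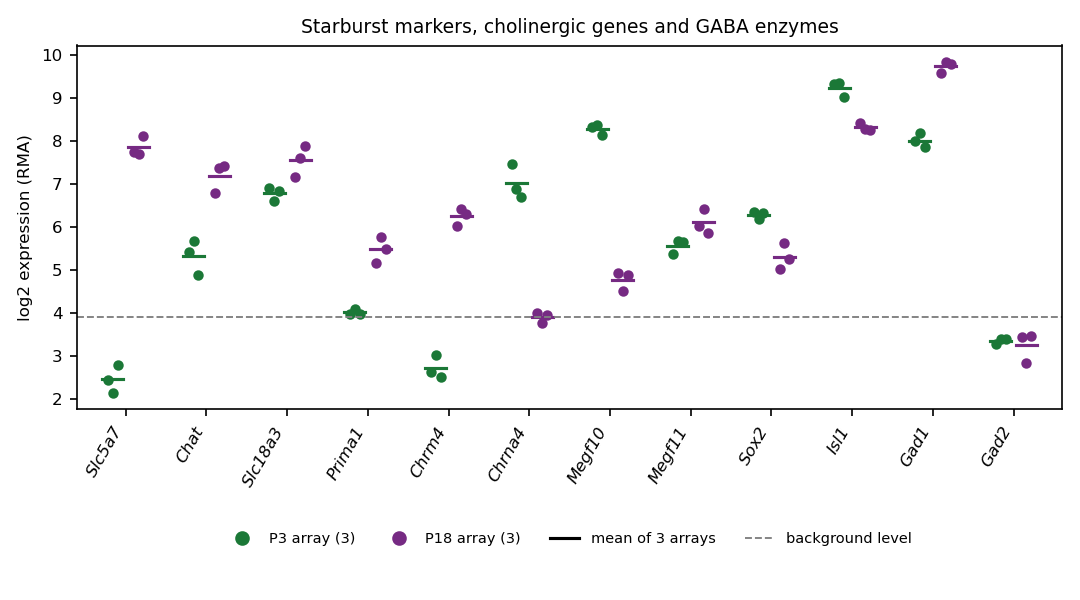
Log2 expression (RMA, vertical axis) of starburst markers, cholinergic genes and the GABA-making enzymes in each of the 3 P3 (green) and 3 P18 (purple) arrays, with the mean of each age as a short bar and the background level of 3.91 as a dashed line. Slc5a7 and Chrm4 go from below the line to above it, Megf10 and Chrna4 fall, and Gad2 stays below the line at both ages.

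The wider cholinergic group had 13 measured members, of which 5 were higher and 1 lower at P18, with a median log2 change of 0.34. Besides Slc5a7, Chat and Slc18a3, the higher members were Prima1, the membrane anchor of acetylcholinesterase, and Ache, the esterase itself. For Prima1 the log2 levels were 3.97, 4.10 and 3.98 at P3 and 5.17, 5.77 and 5.49 at P18, a log2 rise of 1.46 ± 0.18 (SE, adjusted p = 0.0012). Ache went from below background to above it in the group means, and its call was lost when replicate 1 or 3 of P3 or replicate 1 or 2 of P18 was left out. The higher count was 3 without replicate 1 of P3, replicate 3 of P3 or replicate 2 of P18.

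Of 17 measured acetylcholine receptor genes, 1 was higher (5.88%, as against 4.76% of all genes) and 2 were lower (11.8%, as against 3.89%). The median log2 change was -0.05. The genes are therefore described singly and not as a family. Chrm4, a Gi-coupled muscarinic receptor (6879087), had log2 levels of 2.62, 3.03 and 2.50 at P3 and 6.02, 6.42 and 6.30 at P18. No P3 array reached background, and the log2 change was at least 3.53 ± 0.19 (SE, adjusted p = 1.52e-05). Chrna4, the alpha4 subunit of nicotinic channels (6894253), had log2 levels of 7.47, 6.89 and 6.70 at P3 and 3.99, 3.77 and 3.95 at P18. Its arrays went from well above background to around it, a log2 fall of at least 3.12 ± 0.21 (SE, adjusted p = 3.95e-05). Chrm2, a second Gi-coupled muscarinic receptor, varied widely among replicates, with log2 levels of 6.01, 5.90 and 3.75 at P3 and 7.28, 8.23 and 6.73 at P18. Its arrays did not overlap between ages, but the log2 difference of 2.20 ± 0.59 (SE, adjusted p = 0.0524) did not pass the threshold. It passed without replicate 1 of P3, with genes below background left out and in fits over 12 or 28 arrays, and was 1.46 without replicate 3 of P3, the lowest array. Chrnb2, the usual partner of alpha4, had log2 levels of 4.09, 4.95 and 4.11 at P3 and 3.79, 4.25 and 4.49 at P18, and its log2 difference of -0.20 ± 0.27 (SE, adjusted p = 0.738) did not pass either.

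GABA is the other transmitter of these cells. Gad1, which makes it, was already bright at P3 and rose further: the log2 levels were 7.99, 8.18 and 7.85 at P3 and 9.59, 9.83 and 9.78 at P18. The log2 rise was 1.72 ± 0.14 (SE, adjusted p = 0.000138), or 3.3-fold. Gad2, the second enzyme, stayed below background in every array, between 2.85 and 3.46. In the group of GABA synthesis, release and uptake, 2 of 10 measured genes were higher and 1 was lower, with a median log2 change of 0.12. The higher count was 1, leaving Gad1, when any array other than replicate 3 of P3 was left out, and with quantile normalization. The lower one was Slc38a2, a carrier for neutral amino acids such as glutamine, with a log2 fall of 0.89 ± 0.16 (SE, adjusted p = 0.00992).

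Inhibitory receptors changed subunit by subunit. Genes for receptors of GABA and glycine had 5 higher and 1 lower of 18 measured, with a median log2 change of 0.08. Glra4, a glycine receptor alpha subunit, had log2 levels of 2.51, 2.81 and 2.50 at P3 and 4.96, 4.82 and 6.28 at P18, and replicate 3 of P18 stood above its companions. Its log2 change was at least 2.75 ± 0.35 (SE, adjusted p = 0.00127). Gabra4, a GABA-A subunit often found outside synapses, had log2 levels of 2.83, 2.78 and 3.34 at P3 and 5.38, 5.88 and 5.19 at P18, a log2 change of at least 2.50 ± 0.23 (SE, adjusted p = 0.000227). Both were below background in all P3 arrays. Glrb, the beta subunit that anchors glycine receptors at synapses, rose by 2.30 ± 0.24 (SE, adjusted p = 0.000429) on the log2 scale from a level already above background. Gabrd, a subunit of tonic GABA-A receptors, rose by 1.39 ± 0.25 (SE, adjusted p = 0.00926) on the same scale. Gabra3, an alpha subunit of young neurons, had log2 levels of 4.42, 4.05 and 4.72 at P3 and 3.21, 2.69 and 2.67 at P18. It was the lower member, with a log2 fall of at least 1.54 ± 0.22 (SE, adjusted p = 0.00267).

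The response to GABA depends on intracellular chloride, which young neurons keep high. Slc12a5, the potassium-chloride cotransporter KCC2 that exports chloride (6883127), had log2 levels of 4.79, 4.33 and 4.41 at P3 and 7.03, 7.27 and 7.21 at P18. All P18 arrays lay far above all P3 arrays, and the log2 rise was 2.66 ± 0.17 (SE, adjusted p = 2.8e-05), or 6.31-fold. Slc12a2, the chloride importer NKCC1, stayed below background at both ages, between 2.51 and 2.99 on the log2 scale, so no direction could be read for it. Slc4a10, a sodium-coupled bicarbonate transporter, had log2 levels of 4.81, 5.10 and 4.98 at P3 and 7.45, 7.63 and 7.75 at P18. That was a log2 rise of 2.65 ± 0.15 (SE, adjusted p = 2.08e-05). Stk39, the kinase SPAK that phosphorylates chloride cotransporters, rose by 1.11 ± 0.15 (SE, adjusted p = 0.00169) on the log2 scale. These were the 3 higher genes of 17 measured in the chloride group, none of which was lower, and the median log2 change was 0.04.

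Glutamate is the input that starburst cells receive from bipolar cells. Among 31 measured glutamate receptor and auxiliary genes, 10 were higher and 6 lower, with a median log2 change of 0.11. Grm8, a presynaptic group III metabotropic receptor, had log2 levels of 3.59, 4.11 and 4.06 at P3 and 7.02, 7.65 and 7.28 at P18. Its log2 rise of 3.39 ± 0.21 (SE, adjusted p = 2.7e-05) began at the background level. Of the AMPA receptor subunits, Gria3 had log2 levels of 3.83, 4.21 and 3.61 at P3 and 6.86, 7.36 and 7.09 at P18, a log2 change of at least 3.22 ± 0.20 (SE, adjusted p = 2.7e-05). Gria1 went the opposite way, with log2 levels of 6.28, 6.35 and 6.16 at P3 and 4.34, 4.36 and 3.96 at P18. The log2 fall of Gria1 was 2.04 ± 0.17 (SE, adjusted p = 0.000119). Arrays of both ages were well apart for each of these subunits, in opposite directions.

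Other glutamate receptor genes changed less. Grm7, Grm3 and the NMDA subunit Grin2b rose by 1.71, 1.04 and 1.07 on the log2 scale, and Cacng5, an AMPA receptor auxiliary, by 1.70. Dlg4, the postsynaptic scaffold PSD-95, rose by 1.005 ± 0.16 (SE, adjusted p = 0.00427). On the lower side were auxiliaries of AMPA and kainate receptors. Cacng4 and Cnih2 fell by 1.03 and 1.23 on the log2 scale, the kainate subunit Grik2 by 1.19, and its auxiliary Neto2 by at least 1.40.

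**Figure D2:**
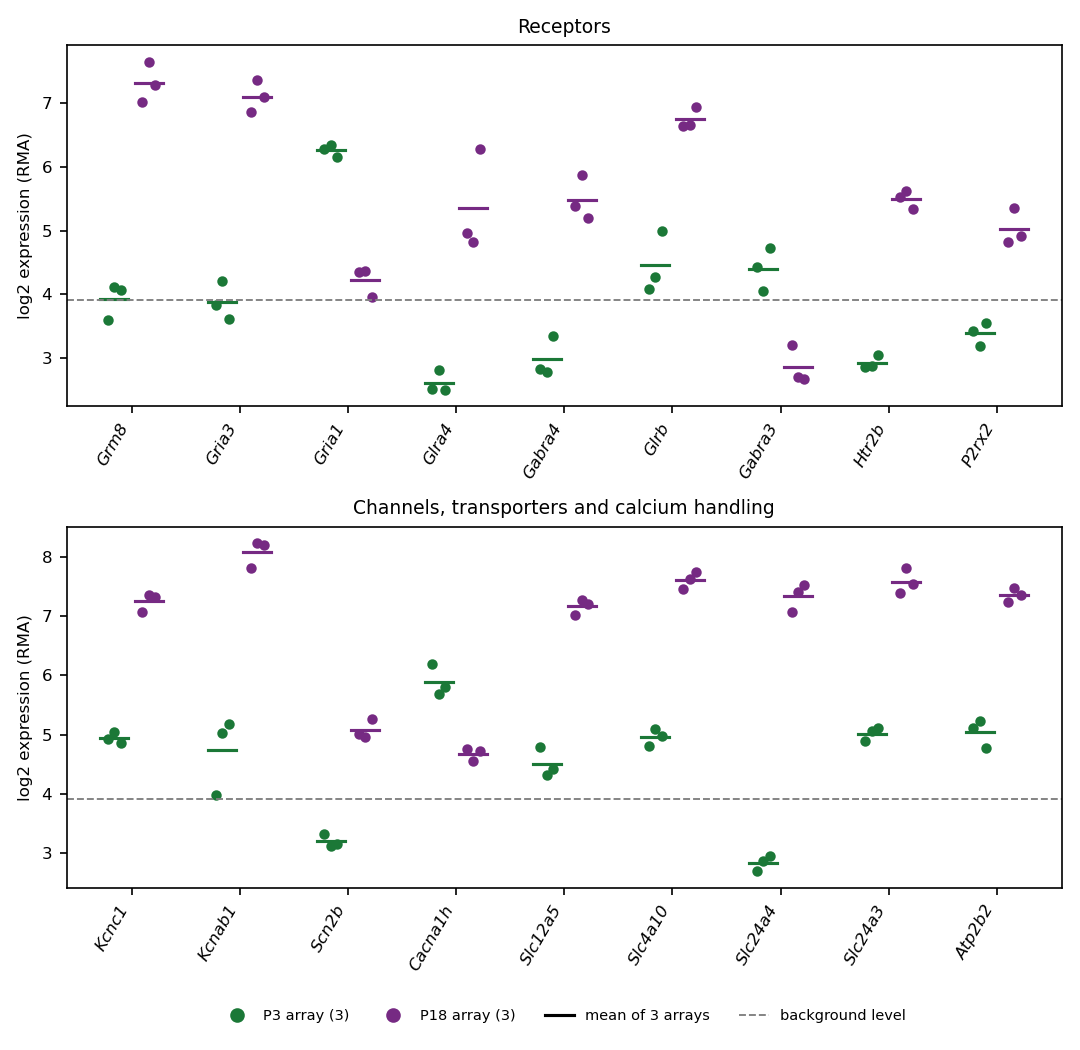
Log2 expression (RMA, vertical axis) of receptors (upper panel) and of channels, transporters and calcium-handling genes (lower panel) in each P3 (green) and P18 (purple) array, with means as bars and the background level of 3.91 dashed. The genes drawn were picked from those called in this comparison, with Gria1, Gabra3 and Cacna1h lower at P18 and the others higher. The arrays of both ages separate for each of them, as they do for 27.0% of all genes.

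Channels that shape firing rose more often than they fell. Of 61 measured potassium and HCN channel genes 13 were higher (21.3%) and 2 lower, with a median log2 change of 0.09. Kcnab1, a beta subunit of Kv1 channels, had log2 levels of 3.99, 5.04 and 5.18 at P3 and 7.81, 8.23 and 8.20 at P18. Replicate 1 of P3 was the lowest array, and the log2 rise was 3.34 ± 0.30 (SE, adjusted p = 0.000195). Kcnc1, the fast delayed rectifier Kv3.1, had log2 levels of 4.94, 5.05 and 4.86 at P3 and 7.08, 7.36 and 7.33 at P18, a log2 rise of 2.31 ± 0.15 (SE, adjusted p = 2.9e-05). Kv3 channels let neurons repolarise quickly and are known in starburst cells. Kcnn2, a calcium-activated SK channel, and Kcnma1, the BK channel, rose by 1.68 and 1.13 on the log2 scale. Kcnj9 and Kcnj2, inward rectifiers, and Kcna4, an A-type channel, rose from below background by at least 1.72, 1.47 and 1.29.

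Voltage-gated sodium channels had 1 higher member among 13 (7.69%, as against 4.76% of all genes) and none lower. The higher one was Scn2b, a beta subunit, with log2 levels of 3.33, 3.13 and 3.16 at P3 and 5.02, 4.96 and 5.26 at P18. Its log2 change was at least 1.87 ± 0.16 (SE, adjusted p = 0.000147), and the group's median was -0.01. The higher count was 3 with genes below background left out and in fits over 12 or 28 arrays, and 2 without replicate 3 of P3. Of 14 calcium channel genes 3 were higher and 1 lower, with a median log2 change of 0.07, and the higher count was 1 without replicate 3 of P3. Cacnb4, a beta subunit, had a log2 rise of 1.10 ± 0.16 (SE, adjusted p = 0.0028). Cacna1h, a T-type channel, had log2 levels of 6.20, 5.68 and 5.81 at P3 and 4.76, 4.55 and 4.73 at P18. This was a log2 fall of 1.22 ± 0.18 (SE, adjusted p = 0.00264).

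The release machinery was the group with the largest share of higher genes among the groups drawn in the plot of gene groups. Members and groups were chosen with earlier results of these data known, so this order is no independent result. Of 66 measured synaptic vesicle and release genes, 28 were higher (42.4%) and 3 lower, and the median log2 change was 0.47. Sv2a, a vesicle glycoprotein, had log2 levels of 5.11, 5.49 and 4.48 at P3 and 7.18, 7.57 and 7.47 at P18, a log2 rise of 2.38 ± 0.25 (SE, adjusted p = 0.000432). Syp, synaptophysin, had log2 levels of 6.77, 6.99 and 6.83 at P3 and 8.38, 8.53 and 8.27 at P18, a log2 rise of 1.53 ± 0.14 (SE, adjusted p = 0.000231). Sncb, beta-synuclein, rose by 2.61, Syn2, a synapsin, by 1.42 and Cplx2, a complexin that clamps fusion, by 1.82. The endocytic genes Dnm1, a dynamin, and Sh3gl2, endophilin A1, rose by 1.97 and 2.01 on the log2 scale, and Nsf, which takes SNARE complexes apart, by 1.52. The vacuolar proton pump that powers vesicle filling rose in several subunits, with log2 changes of 1.59 for Atp6v1g2, 1.40 for Atp6v1a, 1.33 for Atp6v1b2 and 1.08 for Atp6v0a1.

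Fewer vesicle genes fell. Syt6, a synaptotagmin, had log2 levels of 6.78, 7.29 and 6.71 at P3 and 4.55, 4.70 and 5.09 at P18, a log2 fall of 2.15 ± 0.21 (SE, adjusted p = 0.000327). Rab3b, a vesicle GTPase, had log2 levels of 6.08, 5.71 and 5.79 at P3 and 3.60, 3.93 and 4.27 at P18, a log2 fall of 1.92 ± 0.20 (SE, adjusted p = 0.000456). Both were clearly above background at P3 and close to it or slightly above it at P18.

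Calcium handling was a further group with more higher than lower members, 13 and 2 of 50 measured (26.0% higher), with a median log2 change of 0.24. Slc24a4 (6797476), a sodium-calcium exchanger that also carries potassium, had log2 levels of 2.69, 2.87 and 2.95 at P3 and 7.07, 7.41 and 7.53 at P18. No P3 array reached background, and the log2 change was at least 4.50 ± 0.17 (SE, adjusted p = 1.87e-06). Its relative Slc24a3 was above background at both ages, with log2 levels of 4.89, 5.06 and 5.11 at P3 and 7.40, 7.80 and 7.55 at P18, and rose by 2.56 ± 0.16 (SE, adjusted p = 2.67e-05) on the log2 scale. Atp2b2, a plasma membrane calcium pump, and Atp2a2, the pump of the endoplasmic reticulum, rose by 2.32 and 1.54 on the same scale.

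Several calcium-binding proteins and kinases moved with them. Pcp4, a small protein that tunes calmodulin (6843500), had log2 levels of 5.70, 7.14 and 7.09 at P3 and 10.98, 10.94 and 11.15 at P18. The P3 arrays were uneven, with replicate 1 lowest, and the log2 rise was 4.38 ± 0.34 (SE, adjusted p = 8.79e-05). Vsnl1, a visinin-like calcium sensor, had log2 levels of 3.81, 2.74 and 3.09 at P3 and 7.43, 7.58 and 6.84 at P18, a log2 change of at least 4.07 ± 0.29 (SE, adjusted p = 5.56e-05). Camkv, a kinase-like protein of vesicles that lacks catalytic activity, had log2 levels of 4.10, 4.02 and 4.19 at P3 and 7.46, 7.57 and 7.40 at P18. It rose by 3.37 ± 0.14 (SE, adjusted p = 3.1e-06) on the log2 scale. Camk2a, the alpha subunit of CaM kinase II, and Calb1, calbindin, rose from below background by at least 2.75 and 1.54, and Camk4 rose by 2.17.

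Regulators of G protein signalling held 16 higher (21.6%, as against 4.76% of all genes) and 6 lower genes (8.11%, as against 3.89%) among 74 measured. The median log2 change was 0.04. Rgs6, a GTPase-activating protein for Gi and Go (6796500), had log2 levels of 2.68, 2.34 and 2.45 at P3 and 6.78, 6.95 and 6.89 at P18. The replicates agreed closely within each age, and the log2 change was at least 4.38 ± 0.16 (SE, adjusted p = 1.87e-06). Rgs7bp, which carries RGS complexes of this family to the membrane, had log2 levels of 3.63, 3.23 and 2.98 at P3 and 6.46, 6.98 and 6.34 at P18, a log2 change of at least 3.31 ± 0.23 (SE, adjusted p = 4.18e-05). Gnb5, the beta subunit that binds them, rose by 1.09 ± 0.21 (SE, adjusted p = 0.0118), whereas Rgs7 of the same family fell by 0.87 ± 0.16 (SE, adjusted p = 0.00884). Rgs8 and Rgs11 rose by at least 1.98 and 1.05 on the log2 scale and Rgs16 by 1.94. Gnaq, a G protein alpha subunit that activates phospholipase C, had log2 levels of 6.84, 7.02 and 6.91 at P3 and 5.05, 5.06 and 5.47 at P18, a log2 fall of 1.73 ± 0.17 (SE, adjusted p = 0.000279).

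Kinases and enzymes of second messengers were in the same group. Prkce and Prkca, protein kinases C, had log2 changes of at least 3.30 and 2.83. Rasgrp1, an activator of Ras, rose by 2.61 ± 0.15 (SE, adjusted p = 2.08e-05). Adcy2, an adenylyl cyclase, rose by at least 2.26, and Gng7, a G protein gamma subunit, by 1.82 on the log2 scale. Prkca is also a marker of rod bipolar cells, so other markers of that cell type were read beside it. Pcp2 and Trpm1 stayed below background in every array, and the summed level of the 15 bipolar markers was 9.42 to 9.68 on the log2 scale at P3 and 9.14 to 9.22 at P18. Isl1, which starburst cells express too, is among the 15 and made up most of the sum at both ages. Its own fall lowers the sum, so the sum does not show how bipolar signal changed.

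Receptors for monoamines, ATP, adenosine and cannabinoids held 4 higher and no lower genes among 34 measured (11.8% higher), with a median log2 change of 0.12. Htr2b, a serotonin receptor, had log2 levels of 2.85, 2.88 and 3.05 at P3 and 5.53, 5.62 and 5.34 at P18, a log2 change of at least 2.57 ± 0.15 (SE, adjusted p = 2.33e-05). P2rx2, an ATP-gated channel, had log2 levels of 3.43, 3.18 and 3.54 at P3 and 4.82, 5.36 and 4.91 at P18, a log2 change of at least 1.64 ± 0.19 (SE, adjusted p = 0.000769). Each was below background in all P3 arrays and above it in all P18 arrays.

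Most peptide genes were not called. Of 46 measured, 4 were higher (8.70%, as against 4.76% of all genes) and 3 lower (6.52%, as against 3.89%), with a median log2 change of -0.07. Chgb, a granin of dense-core vesicles, had log2 levels of 5.05, 5.41 and 5.68 at P3 and 8.01, 8.67 and 8.03 at P18, a log2 rise of 2.86 ± 0.23 (SE, adjusted p = 0.000109). Grp, gastrin-releasing peptide, had log2 levels of 3.36, 2.08 and 2.54 at P3 and 4.79, 6.15 and 5.12 at P18, with a wide spread at both ages and a log2 change of at least 2.69 ± 0.40 (SE, adjusted p = 0.00289). Cck, cholecystokinin, rose by at least 2.23 ± 0.23 (SE, adjusted p = 0.000392) on the log2 scale. Cck was also the single called marker among 19 of other amacrine types, whose summed log2 level was 8.52 to 8.83 at P3 and 8.36 to 8.61 at P18. Pnoc, the nociceptin precursor, had log2 levels of 4.98, 5.39 and 5.45 at P3 and 3.76, 3.41 and 3.17 at P18, a log2 fall of at least 1.83 ± 0.20 (SE, adjusted p = 0.000608). Cpe, an enzyme that trims peptide precursors, fell by 1.14 ± 0.14 (SE, adjusted p = 0.00127).

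Energy metabolism had the next largest share of higher genes in the plot of gene groups, whose members were chosen with earlier results known. Of 47 measured genes of glycolysis and brain energy supply, 18 were higher (38.3%) and 1 was lower, with a median log2 change of 0.35. Mgarp, a protein of mitochondria that aids their transport (6904972), had log2 levels of 2.90, 2.49 and 3.29 at P3 and 6.86, 7.16 and 7.03 at P18. It crossed background with a log2 change of at least 4.12 ± 0.21 (SE, adjusted p = 1.08e-05). Eno2, neuronal enolase, had log2 levels of 3.82, 3.62 and 3.61 at P3 and 6.36, 6.50 and 5.90 at P18, a log2 change of at least 2.57 ± 0.19 (SE, adjusted p = 6.12e-05). Aldoa, an aldolase, rose by 1.83 on the log2 scale, Pfkm and Pfkp, phosphofructokinases, by 1.72 and 1.16, and Slc2a3, the neuronal glucose transporter, by 1.46. Atp1b1 and Atp1b2, beta subunits of the sodium pump, rose by 1.59 and 1.19, and Got1 and Ogdh, enzymes of the malate-aspartate shuttle and the citrate cycle, by 2.07 and 1.40. Subunits of oxidative phosphorylation had 1 higher and 1 lower of 48 (2.08% each, as against 4.76% and 3.89% of all genes). Their median log2 change was 0.09. The higher count was 6 of 35 when genes below background were left out, 5 in a fit over all 28 arrays and 4 in a fit over 12.

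Aldoc, the aldolase best known from astrocytes and Purkinje cells, was in the same group. It had log2 levels of 3.84, 3.27 and 3.67 at P3 and 6.79, 6.87 and 6.55 at P18, a log2 change of at least 3.14 ± 0.19 (SE, adjusted p = 2.33e-05). The astrocyte markers Gfap and Pax2 stayed below background in every array. The summed level of the 4 astrocyte markers was 5.14 to 5.28 on the log2 scale at P3 and 6.86 to 7.16 at P18, and Aldoc was the single member above background.

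**Figure D3:**
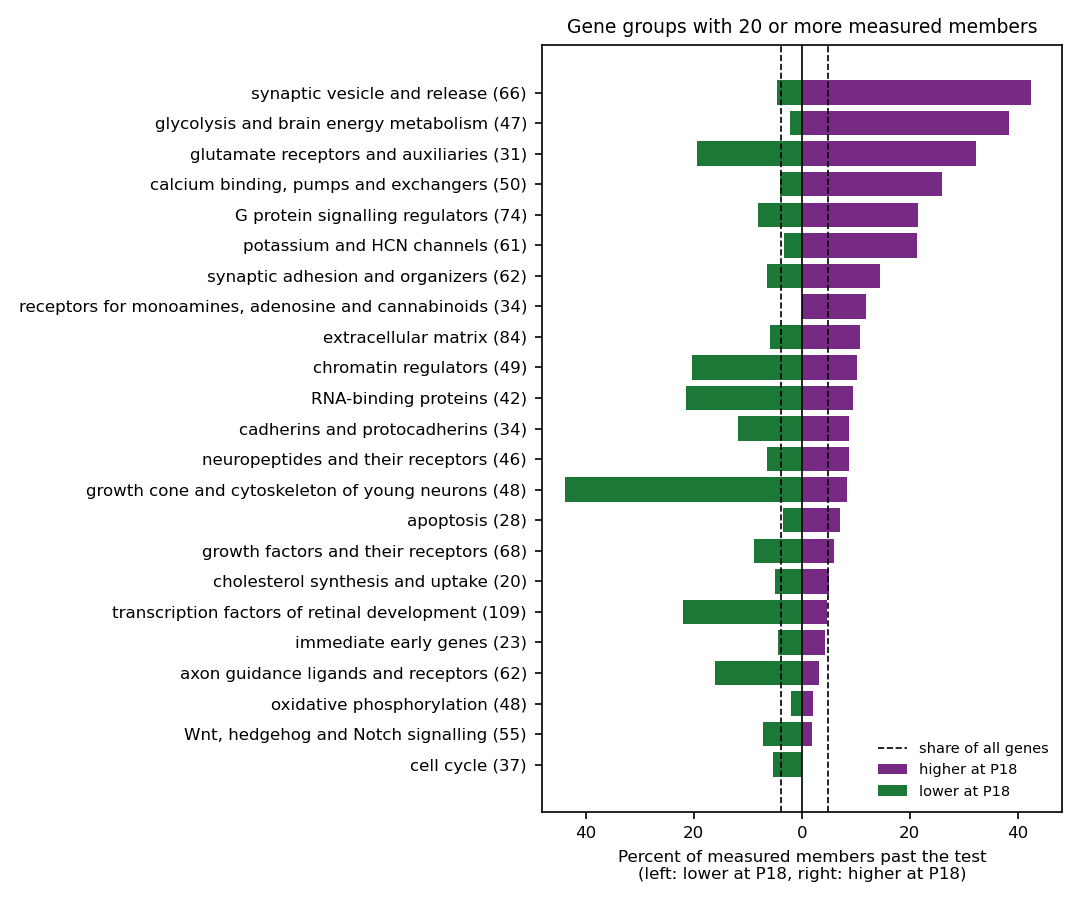
Percent of measured members that passed the test (horizontal axis, higher at P18 to the right and lower to the left) for the gene groups with at least 20 measured members, whose number is given in brackets. Dashed lines mark the shares over all genes, 4.76% higher and 3.89% lower. Synaptic vesicle and energy genes reach 42.4% and 38.3% on the right, and growth cone genes reach 43.8% on the left. Members and groups were chosen with earlier results of these data known. The dashed shares are over 13617 genes, of which 6225 had a P3 or P18 mean above background. That held for 52 of 66 vesicle, 39 of 47 energy and 40 of 48 growth cone genes. The shares are thus not over like sets.

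Many genes of young, growing neurons fell. Of 48 measured growth cone and cytoskeleton genes, 21 were lower (43.8%) and 4 higher, with a median log2 change of -0.60. Dcx, the microtubule protein doublecortin of migrating neurons (7019970), had log2 levels of 6.91, 6.89 and 6.47 at P3 and 2.74, 2.59 and 2.75 at P18. The log2 fall was at least 4.06 ± 0.17 (SE, adjusted p = 3.1e-06). Stmn2, a growth cone protein that destabilises microtubules, had log2 levels of 6.85, 6.78 and 6.88 at P3 and 3.04, 3.15 and 3.13 at P18, a log2 fall of at least 3.73 ± 0.14 (SE, adjusted p = 1.87e-06). The collapsin response mediator family relays guidance signals to the cytoskeleton. Dpysl3 had log2 levels of 9.64, 9.20 and 9.36 at P3 and 6.65, 6.98 and 6.91 at P18, a log2 fall of 2.55 ± 0.16 (SE, adjusted p = 2.8e-05). Dpysl5, Dpysl4 and Crmp1 fell by 2.43, 1.43 and 0.95 on the log2 scale. Dpysl3 remained bright at P18, unlike Dcx and Stmn2, which were below background in all P18 arrays.

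Actin regulators and tubulins were among the lower genes. Fnbp1l, which links curved membranes to actin, had log2 levels of 5.98, 5.58 and 5.65 at P3 and 3.13, 2.89 and 3.15 at P18, a log2 fall of at least 2.68 ± 0.17 (SE, adjusted p = 2.7e-05). Fscn1, which bundles actin in filopodia, Dbn1, drebrin, Enah, an anti-capping protein, and Tubb5, a beta-tubulin, fell by 1.70, 1.47, 1.45 and 1.63 on the log2 scale. Among neurofilaments the direction was mixed. Ina, alpha-internexin, fell by 1.26 and Nefm by at least 0.85, whereas Nefh, the heavy subunit of mature axons, had log2 levels of 4.14, 3.90 and 3.84 at P3 and 5.39, 5.996 and 5.09 at P18 and rose by 1.53 ± 0.23 (SE, adjusted p = 0.00343). Gap43, the classic growth cone protein, had a log2 difference of -0.43 ± 0.22 (SE, adjusted p = 0.313), which did not pass the threshold. Nefh and Nefm belong to the 12 ganglion cell markers too, whose summed log2 level was 7.29 to 7.37 at P3 and 7.50 to 7.68 at P18.

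Guidance genes were lower more often than higher, with 10 lower and 2 higher of 62 measured and a median log2 change of -0.14. Sema3a, a secreted repellent, had log2 levels of 5.11, 5.10 and 4.61 at P3 and 2.63, 2.46 and 2.45 at P18, a log2 fall of at least 2.43 ± 0.18 (SE, adjusted p = 6.73e-05). Sema3d of the same class had log2 levels of 4.66, 4.61 and 5.17 at P3 and 2.65, 2.36 and 2.60 at P18, a log2 fall of at least 2.28 ± 0.19 (SE, adjusted p = 0.000151). Both ended below background. Sema6a, a transmembrane semaphorin that acts with plexin A2 in starburst dendrites, had log2 levels of 7.16, 7.43 and 6.89 at P3 and 5.67, 5.65 and 5.78 at P18 and fell by 1.46 ± 0.17 (SE, adjusted p = 0.000769) on the log2 scale. Epha5, Neo1 and Plxna1, guidance receptors, fell by 1.46, 1.08 and 0.83, and the ligand Efna2 by at least 1.36. Epha10 was a higher member, by 0.91 ± 0.17 (SE, adjusted p = 0.00951). In a fit over all 28 arrays 16 members of the group were lower.

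Cell-contact genes divided between both directions. Of 62 genes of synaptic adhesion 9 were higher (14.5%) and 4 lower (6.45%), with a median log2 change of -0.07. Of 34 cadherins and protocadherins 3 were higher (8.82%) and 4 lower (11.8%), with a median of -0.07. In the fit over all 28 arrays the cadherin counts were 1 and 7. Over all genes the shares were 4.76% and 3.89%. Amigo2, a leucine-rich repeat adhesion protein outside these groups (6838303), had log2 levels of 4.21, 5.33 and 5.61 at P3 and 8.63, 8.55 and 9.07 at P18. Replicate 1 of P3 was lower than its companions, and the log2 rise was 3.70 ± 0.33 (SE, adjusted p = 0.000199). Cntn1, a contactin, had log2 levels of 3.72, 3.97 and 3.81 at P3 and 6.01, 6.01 and 5.80 at P18, a log2 change of at least 2.11 ± 0.15 (SE, adjusted p = 5.69e-05). Pcdh18, a protocadherin, had log2 levels of 4.02, 3.94 and 3.78 at P3 and 5.92, 6.41 and 5.95 at P18, a log2 rise of 2.18 ± 0.18 (SE, adjusted p = 0.000133). On the lower side, Cdh2, N-cadherin, had log2 levels of 7.31, 7.16 and 7.11 at P3 and 5.74, 5.79 and 5.84 at P18, a log2 fall of 1.40 ± 0.14 (SE, adjusted p = 0.000327). Cdh11 fell by at least 2.16 on the log2 scale and Cadm1, a synaptic immunoglobulin protein, by 1.50. Tmeff1, a transmembrane protein with follistatin domains, had log2 levels of 8.16, 8.21 and 8.02 at P3 and 4.59, 4.48 and 4.04 at P18, a log2 fall of 3.76 ± 0.18 (SE, adjusted p = 5.26e-06).

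Among 84 measured extracellular matrix genes 70 were not called. The 9 higher genes were 10.7% of the group, as against 4.76% of all genes, and the 5 lower genes were 5.95%, as against 3.89%, with a median log2 change of -0.09. Sparcl1, a secreted protein of synapse formation (6940611), had log2 levels of 3.67, 3.83 and 4.56 at P3 and 10.06, 10.28 and 10.002 at P18. It started around the background level, with P3 arrays on either side of it, and rose by 6.10 ± 0.23 (SE, adjusted p = 1.87e-06) on the log2 scale. Col25a1, a transmembrane collagen, and Sdc2, a syndecan, rose from below background by at least 1.98 and 1.94, and Adam23 rose by 2.25. Vcan, the proteoglycan versican (6814956), had log2 levels of 7.44, 7.71 and 7.47 at P3 and 2.54, 2.67 and 2.46 at P18. The arrays of each age lay close together, and the log2 fall was at least 4.99 ± 0.15 (SE, adjusted p = 1.66e-06). Has2, which makes the hyaluronan that versican binds, had log2 levels of 7.05, 6.40 and 6.46 at P3 and 2.78, 3.28 and 2.84 at P18, a log2 fall of at least 3.67 ± 0.22 (SE, adjusted p = 2.33e-05). Gpc4, a glypican, fell by at least 1.53 on the log2 scale. In the fit over all 28 arrays 11 members were lower.

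**Figure D4:**
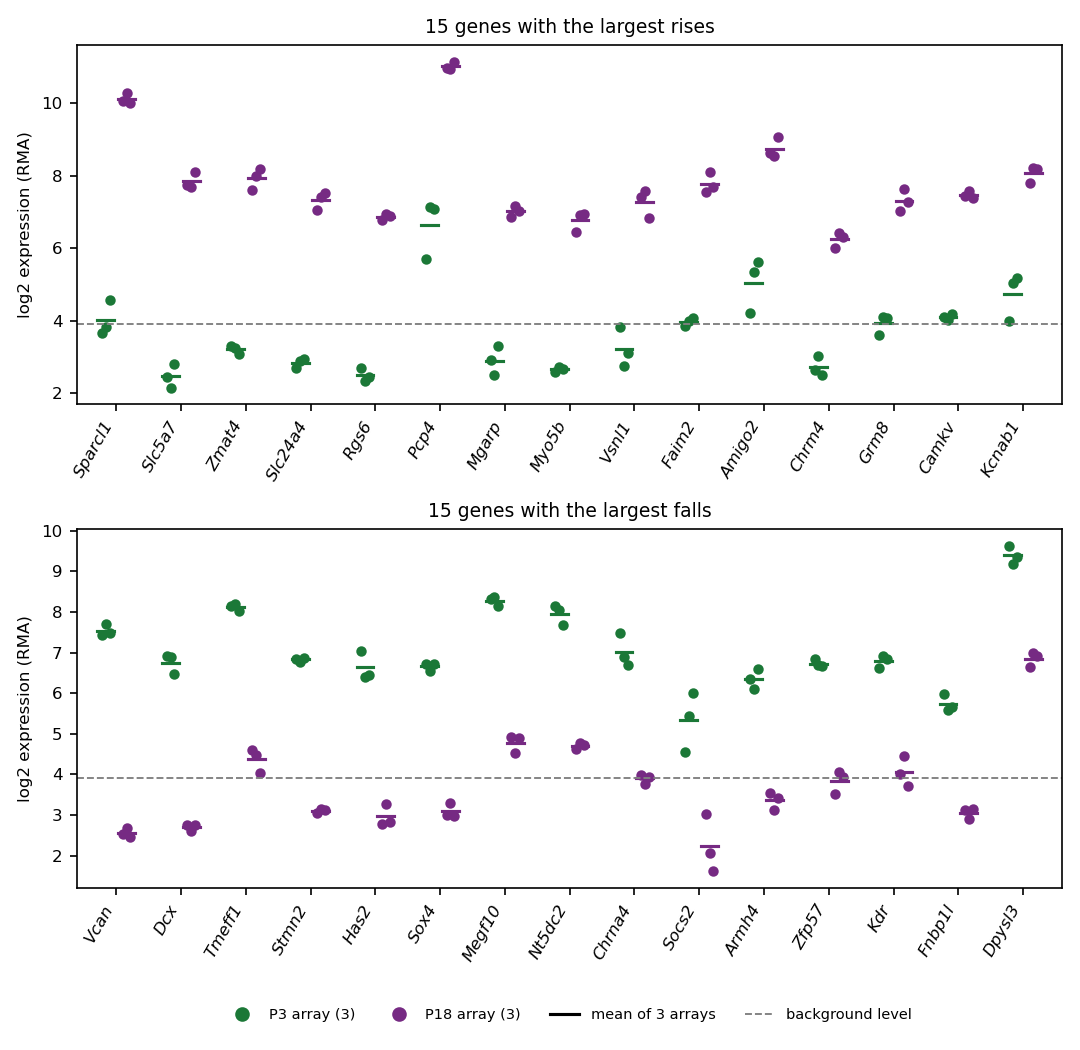
Log2 expression (RMA, vertical axis) of the 15 genes named by rule for the largest rises (upper panel) and the 15 for the largest falls (lower panel) in each P3 (green) and P18 (purple) array, with means as bars and the background level of 3.91 dashed. The arrays of both ages separate for all 30 genes, as the rule requires, and Slc5a7, Rgs6 and Myo5b are among the rising genes that start below the dashed line.

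Of the remaining genes named by rule, Zmat4, a zinc finger protein, had log2 levels of 3.31, 3.23 and 3.08 at P3 and 7.61, 8.01 and 8.20 at P18, a log2 change of at least 4.73 ± 0.18 (SE, adjusted p = 1.87e-06). Myo5b, a myosin motor of recycling endosomes, had log2 levels of 2.57, 2.73 and 2.66 at P3 and 6.45, 6.92 and 6.94 at P18, a log2 change of at least 4.12 ± 0.18 (SE, adjusted p = 3.2e-06). Faim2, an inhibitor of Fas-driven apoptosis in neurons, had log2 levels of 3.84, 3.98 and 4.08 at P3 and 7.56, 8.10 and 7.70 at P18, a log2 rise of 3.82 ± 0.18 (SE, adjusted p = 5.18e-06). This rise began close to the background level. Faim2 and Bnip3 were the higher genes among 28 of the apoptosis group (7.14%, as against 4.76% of all genes). In that group 1 was lower (3.57%, as against 3.89%).

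Among falling genes, Nt5dc2, a 5′-nucleotidase domain protein, had log2 levels of 8.15, 8.04 and 7.69 at P3 and 4.63, 4.79 and 4.72 at P18, a log2 fall of 3.25 ± 0.16 (SE, adjusted p = 8.54e-06). Socs2, a suppressor of cytokine and growth hormone signalling, had log2 levels of 4.56, 5.43 and 6.02 at P3 and 3.02, 2.05 and 1.61 at P18, a log2 fall of at least 3.11 ± 0.42 (SE, adjusted p = 0.00185), and its replicates were the most spread of these. Armh4 had log2 levels of 6.34, 6.11 and 6.59 at P3 and 3.54, 3.12 and 3.42 at P18, a log2 fall of at least 2.99 ± 0.19 (SE, adjusted p = 2.67e-05). Zfp57, a zinc finger protein that protects imprinted methylation, had log2 levels of 6.83, 6.69 and 6.67 at P3 and 3.52, 4.06 and 3.93 at P18, a log2 fall of at least 2.89 ± 0.18 (SE, adjusted p = 2.53e-05). Its P18 arrays straddled the background level.

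Growth factor signalling had 4 higher (5.88%, as against 4.76% of all genes) and 6 lower genes (8.82%, as against 3.89%) of 68 measured. The median log2 change was -0.18. Ntrk2, the BDNF receptor TrkB, rose by 1.03 ± 0.16 (SE, adjusted p = 0.0036), and Vegfa by 0.99 ± 0.18 (SE, adjusted p = 0.0081). Kdr, the main receptor of VEGF-A, had log2 levels of 6.62, 6.90 and 6.85 at P3 and 4.001, 4.44 and 3.71 at P18, a log2 fall of 2.74 ± 0.20 (SE, adjusted p = 6.87e-05). Kdr is the classic endothelial receptor, and 11 of the 13 endothelial and mural markers were below background at both ages, among them Pecam1, Cldn5 and Cdh5. The summed log2 level of those markers was 7.67 to 7.80 at P3 and 6.87 to 7.22 at P18. Kdr is itself in this sum and a large part of it at P3. The lower sum at P18 therefore cannot be read apart from the fall of Kdr. Kit, a receptor tyrosine kinase, fell by at least 1.33 ± 0.18 (SE, adjusted p = 0.00171). The higher count was 2 without replicate 3 of P3, 2 of P18 or 3 of P18, and the lower count was 3 without replicate 2 of P3 or 1 of P18 and 10 in the fit over all 28 arrays.

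Of 55 Wnt, hedgehog and Notch genes 1 was higher (1.82%, as against 4.76% of all genes) and 4 were lower (7.27%, as against 3.89%). The higher one was Wnt2b, a secreted Wnt ligand, with log2 levels of 5.15, 4.94 and 5.19 at P3 and 7.02, 7.79 and 7.34 at P18. Its log2 rise was 2.29 ± 0.21 (SE, adjusted p = 0.0002). The 4 lower members were close to the threshold, and between 0 and 2 of the group were lower when any of the 6 arrays was left out, as against 8 in the fit over all 28 arrays.

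Transcription factors of retinal development were lower more often than higher, 24 and 5 of 109 measured (22.0% lower), with a median log2 change of -0.16. Sox4, a factor of newborn neurons (6811977), had log2 levels of 6.71, 6.56 and 6.72 at P3 and 2.996, 3.30 and 2.96 at P18. The log2 fall was at least 3.58 ± 0.16 (SE, adjusted p = 3.95e-06). Rorb, a nuclear receptor needed for amacrine and photoreceptor fates, had log2 levels of 8.42, 8.30 and 7.94 at P3 and 6.33, 5.96 and 6.53 at P18, a log2 fall of 1.95 ± 0.19 (SE, adjusted p = 0.000355). Factors that define amacrine and starburst identity fell too but stayed well above background. Isl1, a LIM homeodomain factor that starburst cells require, had log2 levels of 9.33, 9.34 and 9.02 at P3 and 8.42, 8.29 and 8.26 at P18, a log2 fall of 0.91 ± 0.14 (SE, adjusted p = 0.00382). Sox2, which guides starburst cell placement, had log2 levels of 6.34, 6.18 and 6.32 at P3 and 5.03, 5.64 and 5.26 at P18, a log2 fall of 0.97 ± 0.18 (SE, adjusted p = 0.0105). Pax6, the eye field and amacrine factor, fell by 1.02 ± 0.14 (SE, adjusted p = 0.00213). Neurod1, Satb1, Onecut2 and Meis1 fell by 1.47, 1.73, 1.35 and 1.17 on the log2 scale. Id4, an inhibitor of basic helix-loop-helix factors, was higher, by 1.47 ± 0.14 (SE, adjusted p = 0.000268). The lower count was 15 without replicate 2 of P3, 14 without replicate 2 of P18 and 13 without replicate 3 of P18.

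RNA-binding proteins had 9 lower and 4 higher of 42 measured (median log2 change -0.22). Qk, quaking, had log2 levels of 7.62, 7.85 and 7.70 at P3 and 5.22, 5.53 and 5.50 at P18, a log2 fall of 2.31 ± 0.15 (SE, adjusted p = 3.42e-05). Ptbp2, a splicing regulator of young neurons, and Celf3 fell by 0.90 and 1.08, whereas Cpeb2 and Mbnl2, which control translation and splicing, rose by 1.87 and 1.59 on the log2 scale. The lower count was between 3 and 5 when any array other than replicate 2 of P18 was left out. Chromatin regulators had 10 lower and 5 higher of 49 (median log2 change -0.04). Ezh2, the Polycomb methyltransferase, fell by at least 1.37 and Hdac2 by 1.13, and Smarca2, an ATPase of the SWI/SNF remodelling complex, had log2 levels of 4.14, 4.27 and 4.18 at P3 and 6.04, 6.68 and 6.34 at P18, a log2 rise of 2.15 ± 0.18 (SE, adjusted p = 0.000155). Dnmt3a, a DNA methyltransferase, rose by 1.06. The lower count of chromatin regulators was 5 without replicate 1 of P3, 1 of P18 or 3 of P18, and the higher count was 3 without replicate 3 of P3 or 2 of P18. Cell cycle genes had 2 lower of 37 (5.41%, as against 3.89% of all genes) and none higher, with a median log2 change of -0.14. Cholesterol, immediate early, heat shock and gap junction genes had at most 1 call in each direction.

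Starburst markers had 3 higher and 3 lower of 7, and their summed log2 level was 10.08 to 10.29 at P3 and 9.87 to 10.12 at P18. Megf10 and Isl1, both lower at P18, are in that sum. Markers of amacrine cells as a class had 2 higher and 4 lower of 14, and their summed log2 level was 10.55 to 10.74 at P3 and 10.67 to 10.90 at P18. Of the class markers 1 or 2 were lower when any array other than replicate 2 of P18 was left out. Markers of other retinal cells were read on the same arrays. Rod markers held 3 higher and no lower of 18 measured, while 5 were higher without replicate 2 of P18 or in a fit over all 28 arrays, 7 in a fit over 12 arrays, and 2 without replicate 3 of P3 or of P18. Gnat1, the rod transducin, had log2 levels of 3.28, 2.98 and 3.19 at P3 and 6.33, 5.91 and 6.19 at P18. Its log2 change was at least 2.99 ± 0.17 (SE, adjusted p = 1.89e-05). The change of Sag, rod arrestin, was at least 1.03 and that of Reep6 was 0.99, and the call of Sag was lost without replicate 3 of P3 or replicate 3 of P18. The rod factor Nrl and the transducin subunit Gngt1 stayed below background in every array. The summed log2 level of rod markers was 9.36 to 9.44 at P3 and 9.67 to 9.77 at P18. All 13 cone markers and 11 of 12 microglial markers were at or under background at both ages, with none called. Horizontal cell markers, among them Calb1 and Onecut2, had 2 higher and 2 lower of 8 and a summed log2 level of 7.58 to 7.65 at P3 and 7.46 to 7.75 at P18. Müller glia had 1 lower of 14 markers and a summed log2 level of 8.46 to 8.55 at P3 and 7.99 to 8.29 at P18. The part of these levels in the changes above was not tested.

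Whether the starburst changes differ from those of other amacrine cells was asked against Arc amacrine cells, sorted by EGFP from the Tg(Arc-EGFP)194Gsat/Mmcd line. There were single arrays per day, so P2 to P4 and P17 to P19 stood in for replicates, and the batch label of the Arc arrays is "A and B", not B. Cell type, line, fluorophore and batch therefore cannot be told apart. By a limma interaction over these 12 arrays, 548 of 13617 genes (4.02%) changed by a different amount. Of the 30 genes named by rule, 20 were among them. The 30 were picked for the largest starburst changes on 6 of these 12 arrays. That choice favours a difference, so 20 of 30 cannot be set against 4.02%. The background level of the Arc arrays, set in the same way, was 3.53, and for 6 of the 20 genes all 4 group means lay above background. Grm8 rose in starburst cells and was above background in Arc cells at both ages, with a log2 change of -0.06 there, and the difference of changes was 3.46 ± 0.27 (SE, interaction adjusted p = 7.09e-06). Amigo2 had log2 changes of 3.70 in starburst cells and 0.48 in Arc cells, and Sparcl1 of 6.10 and 3.85. The starburst P3 means of Grm8 and Sparcl1, 3.92 and 4.02, lay close to background. Tmeff1 and Nt5dc2 had log2 changes of -3.76 and -3.25 in starburst cells and of -0.45 and -2.23 in Arc cells. Dpysl3 had the opposite order, with log2 changes of -2.55 in starburst and -3.69 in Arc cells.

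For 7 of the 20 genes both Arc means lay below background, so no change with age could be read in Arc cells. These were Slc5a7, Slc24a4, Rgs6 and Myo5b, which rose in starburst cells, and Vcan, Has2 and Megf10, which fell. What the data show for them is a signal above background in starburst cells at P18 or at P3 that Arc cells had at neither age. Dcx ended below background in both cell types, so its falls could not be ranked.

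For the other 10 genes the difference between cell types did not pass the threshold. Faim2, with all 4 means above background, had log2 changes of 3.82 in starburst and 3.49 in Arc cells, with a difference of 0.33 ± 0.30 (SE, interaction adjusted p = 0.706). Its starburst mean at P3, 3.97, lay close to background, so its starburst rise may be larger than measured. Pcp4, with all 4 means above background, had a difference of 0.42 ± 0.69 (SE, interaction adjusted p = 0.865). Mgarp and Sox4 crossed background in both cell types, so the sizes of their changes were not compared.

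**Figure D5:**
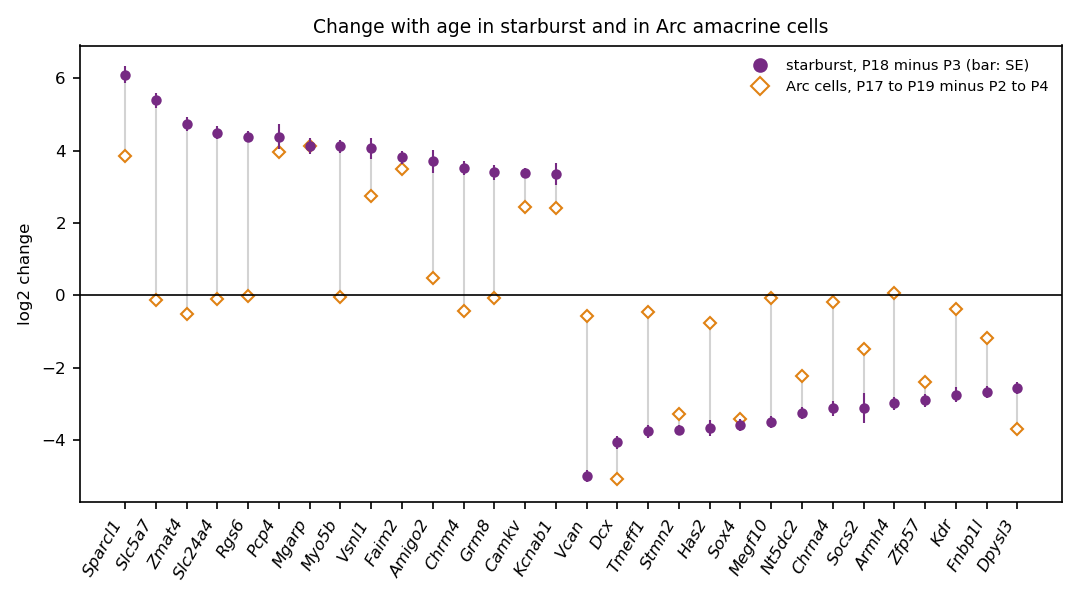
Log2 change with age (vertical axis) of the 30 genes named by rule, in starburst cells (filled circles, P18 minus P3, bars are SE from limma with 3 arrays per age) and in Arc amacrine cells (open diamonds, mean of P17 to P19 minus mean of P2 to P4). Long grey lines, as for Slc5a7, Zmat4 and Vcan, mark genes whose plotted changes lie far apart. Changes that start or end below background, as for Mgarp and Sox4 in both cell types, are lower bounds, and Slc5a7 and Vcan were below background in Arc cells at both ages.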

How the data were processed

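RNA of sorted retinal cells was hybridised to 1-colour arrays. Per the submitters' processing notes, the authors used R 2.11.1 and RMA and genome build mm8, and they deposited log2 values per transcript cluster. The base of the logarithm, the arrays normalized together, any filter and any batch correction are not given in the sources used here; base 2 was taken from RMA's convention.

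Of 15170 clusters, the 13720 with 1 gene symbol in the platform annotation were kept, 869 with several and 581 with none were left out, and for 102 genes with several clusters the brightest was used, which left 13617 genes. Of the kept clusters 13699 matched RefSeq by Entrez ID, and 0 symbols changed. P18 and P3 were compared over the 6 starburst arrays with limma 3.58.1 in R 4.3.3 (lmFit, eBayes with trend, two-sided), with Benjamini-Hochberg adjustment over all genes at 0.05. Dim genes were not filtered out. The number of arrays limits the precision, n is 3 per age for every value, and SE is limma's. The difference from the Arc change was an interaction over 12 arrays. The same-numbered arrays of P3 and P18 did not deviate together (r between -0.04 and 0.05), so no block was used.

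Genes were named by rule as the 15 highest and 15 lowest log2 changes among those past the threshold whose arrays did not overlap, whose mean was above the median of all genes and whose symbol is no placeholder. Beside them, members of 32 gene groups and 15 marker lists were named if past the threshold or defining a group. The members and lists were chosen with earlier results of these data known. A marker sum is the log2 of summed linear values per array. The scripts were tested on simulated data. Alternatives were other normalizations, filters, variance priors and sets of arrays, a replicate block, treat against a 2-fold change and each array left out. Promoter sequences are RefSeq's, for GRCm38.p6, and no position was taken from mm8.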

Additional observations from a re-analysis of the deposited data

Results flagged for a closer look

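For 20 of the 30 genes named by rule, the change with age differed between starburst and Arc amacrine cells in the interaction test. The 30 were picked for large starburst changes on the same starburst arrays, which favours a difference. The values below are the starburst log2 change minus the Arc log2 change in measured signal. Starburst cells had 3 arrays per age. For Arc cells, single arrays of P2 to P4 and of P17 to P19 stood in for replicates. Background was 3.91 in starburst and 3.53 in Arc arrays.

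All 4 group means were above background for 6 genes. The difference was 3.46 ± 0.27 (SE) for Grm8, 3.22 ± 0.40 (SE) for Amigo2 and 2.24 ± 0.39 (SE) for Sparcl1. It was -3.31 ± 0.21 (SE) for Tmeff1 and -1.02 ± 0.21 (SE) for Nt5dc2. Dpysl3 had the larger decrease in Arc cells, with a difference of 1.14 ± 0.21 (SE). The starburst P3 means of Grm8 and Sparcl1, 3.92 and 4.02, lay close to background, so their starburst rises may be larger than measured.

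For 7 genes both Arc means were below background, so the Arc part of the difference cannot be read and the values are no sizes of change. They were 5.51 for Slc5a7, 4.59 for Slc24a4, 4.40 for Rgs6 and 4.18 for Myo5b, and -4.42 for Vcan, -3.44 for Megf10 and -2.92 for Has2.

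The remaining genes had 1 or more means below background. Zmat4 and Chrm4, below background in starburst cells at P3 and in Arc cells at P17 to P19, had measured differences of 5.26 and 3.95. Their Arc means at P2 to P4, 3.81 and 3.59, were close to background too, so the Arc part can hardly be read. Armh4, Chrna4 and Fnbp1l ended below background in starburst cells alone, with measured differences of -3.05, -2.95 and -1.51. The early and late Arc means of Armh4 (3.87 and 3.94) and Chrna4 (4.11 and 3.94) were not far above background. Kdr ended below background in Arc cells alone, with -2.36. Its Arc mean at P2 to P4, 3.70, was close to background too, so its Arc change can hardly be read. Dcx ended below background in both cell types, and its difference of 1.02 gives no order of the falls.

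The interaction adjusted p lay between 4.02e-08 for Rgs6 and 0.0133 for Nt5dc2. Batch label, mouse line and fluorophore differ between the cell types.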

How the results depend on the processing

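The counts of higher, lower and at least 2-fold changed genes stayed within 1.5 times the reported values under median centring, quantile and cyclic loess normalization, a filter on background, averaging of clusters, other variance priors and array weights, where 1069 to 1264 genes were called. More genes were called when the Arc arrays shared the estimate of spread. Those fits counted Arc arrays of neighbouring days as replicates, so change between the days entered the spread. The fit over all 28 arrays called 2251 genes, 1015 higher and 1236 lower, so that lower genes were then the more numerous. The fit over 12 arrays called 806 lower. Testing against a 2-fold change with treat left 127 genes, 93 higher and 34 lower, and all 30 genes named by rule were among them. With 1 array left out, 810 to 908 genes were called, 456 to 546 higher and 333 to 408 lower. The lowest lower count, 333, came without replicate 1 of P18. Of genes changed at least 2-fold, 348 to 392 were then higher and 203 to 240 lower. With the 99th percentile of olfactory receptor genes (4.76) as background, 245 genes instead of 161 rose from below it to above it. The cause of these shifts was not tested.

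With a replicate block 1060 genes were called, 595 higher and 465 lower, and 371 and 242 of those at least 2-fold. The arrays share only a number. The block ended the call of Slc18a3 and gave Chrm2 one.

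Of 169 genes with a reported change or difference, 166 were called. The 17 alternatives that test for any change include a background filter, which did not test genes with a mean below 3.91, such as Socs2. A total of 163 kept the call under every one of the 17 in which they were tested. Slc18a3 (log2 differences 0.60 to 0.95), Ache and Sag did not. Slc18a3 lost it under median centring, quantile normalization, the fits over 12 and 28 arrays, the replicate block and 5 of the 6 fits without 1 array. Chrnb2, not called, had log2 differences between -0.36 and 0.081 with 1 array left out, and changed sign without replicate 2 of P3. Of the 20 differences from Arc cells, 19 kept their call under every alternative run. That of Dcx was 0.59 with quantile normalization of the 12 arrays and 0.58 with Arc P1 to P5 and P16 to P20, neither past the threshold, and its levels end below background in both cell types. That of Camkv passed with quantile normalization (1.30) and cyclic loess (1.07). Signals near background limit what can be read for genes such as Gad2 and Slc12a2.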
